A study of Homo sapiens with 6 samples.

Results

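The transcripts that encode the general mRNA decay machinery were followed in HaCaT keratinocytes, an immortalised human line, after YTHDF2 was targeted by siRNA. The set holds 44 named genes of deadenylation (CCR4-NOT and PAN2-PAN3), decapping and 5'-3' decay, nonsense-mediated decay (NMD), the RNA exosome and RNase P/MRP, taken by symbol from the 16551 genes of the deposited count table, and all 44 were found. The 6 libraries are 3 labelled NC, the control (si-NC in the design text), and 3 labelled si-YTHDF2, in a series whose title names psoriasis, proliferation, the inflammatory response and Wnt signaling. The cells came from the line HaCaT in both groups, the labels record no other treatment, and RNA was ribosome-depleted total RNA. The siRNA sequence, its dose and the time after transfection do not appear in the labels. They also do not say whether the numbered libraries are separate cultures, so a p-value here reflects library-to-library spread alone, which may be technical.

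Decay of most mRNAs starts with shortening of the poly(A) tail, by PAN2-PAN3 and then by CCR4-NOT. The body of the transcript is then degraded from its 5' end, after the cap is removed, or from its 3' end by the exosome. YTHDF2 is a cytoplasmic protein that binds N6-methyladenosine in mRNA and recruits CCR4-NOT through its scaffold CNOT1, so the genes described here encode the enzymes it works through and their partner pathways.

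Total counts ran from 19803707 to 22698069 per library. The 44 genes took 0.337% to 0.346% of them in NC and 0.354% to 0.378% in si-YTHDF2. YTHDF2 itself stood at 74.6, 77.5 and 83.8 CPM (counts scaled to library size with TMM factors) in NC and at 42.98, 48.4 and 43.5 CPM in si-YTHDF2. The groups did not overlap, the si-YTHDF2 libraries kept 57.1% of the NC level, and the log2 fold change was -0.81 ± 0.07 (SE; adjusted p = 4.13e-07, edgeR quasi-likelihood test). Of 12264 genes tested, 51.2% were called at an adjusted p under 0.05, 26.1% as higher and 25.2% as lower in si-YTHDF2, so a call on its own was the usual outcome in these libraries. Higher genes were 50.9% of the calls, and 61.3% when libraries were scaled by their totals alone, which also moved the median log2 fold change of all genes from 0.01 to 0.08. Keratinocyte markers were abundant in all 6 libraries, summing to 6004 to 6241 CPM in NC and 5333 to 5822 CPM in si-YTHDF2 with 2 of 12 called higher and 6 lower, although the marker KRT14 stood at 0.549 to 4.43 CPM. The simple epithelium markers KRT7, KRT8, KRT18 and KRT19 summed to 6627 to 6933 CPM in NC and 4814 to 5370 CPM in si-YTHDF2, and all 4 were called lower. The 9 erythroid markers summed to 55.7 to 58.2 CPM in NC and 1542 to 1774 CPM in si-YTHDF2, and the 7 leukocyte and platelet markers to 1.01 to 1.32 and 18.4 to 20.03 CPM. Of these, 6 erythroid and 4 leukocyte and platelet markers were called higher, the others were too low to be tested, and no gene of either list was at 0 in all libraries. The part of these RNAs in the differences below was not tested. In bulk RNA, fewer cells of a type and less RNA per cell cannot be told apart. Library 1 of si-YTHDF2 stood apart from the other two of its group, with a chi-square per gene of 12.1 and 13.5 against them where they gave 3.67 to each other.

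Differences in the decay machinery were small and ran in both directions. Of the 43 genes that passed the low-count filter, 10 were higher and 6 lower in si-YTHDF2 (37.2% called, beside 51.2% of all tested genes), and 27 were not called. Without si-YTHDF2 library 1, which stood apart, 13 were higher and 11 lower, beside 6757 of 12412 tested genes called without it. None reached 1.5-fold, whereas 16.8% of all tested genes were called at that size. Log2 fold changes ran from -0.43 for LSM14A, which was not called, to 0.52 for UPF3A. Their median was 0.02 and the median of their absolute values 0.14, beside 0.01 and 0.26 over all tested genes. For 35 of the 43 genes the 95% interval of the fold change lay within 1.5-fold in both directions. Groups did not overlap for 25 of the 43, which included all 16 called genes, beside 58.5% of all tested genes. The widest gaps between groups, taken from the nearest libraries, were those of EXOSC8, UPF3A, EXOSC6 and CNOT9, in that order.

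**Figure D1:**
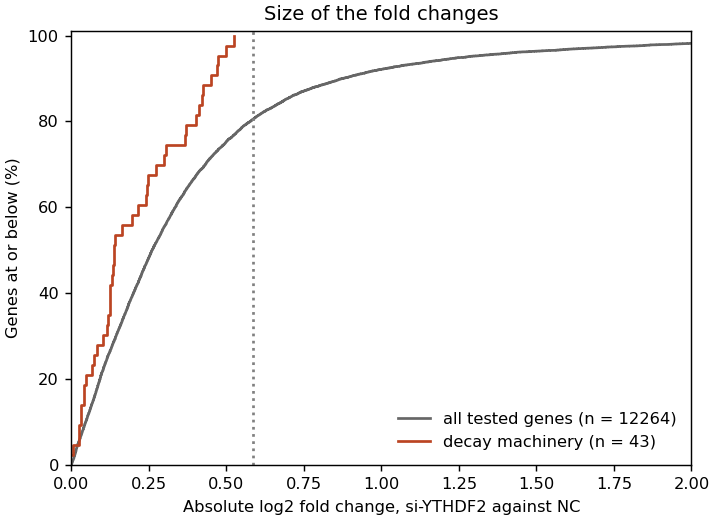
Cumulative share of genes (y axis, %) at or below an absolute log2 fold change (x axis), for the 43 tested decay machinery genes (red) and all 12264 tested genes (grey), with a dotted line at 1.5-fold. The red curve reaches 100% before the line, while 19.6% of all genes lie beyond it, called or not.

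**Figure D2:**
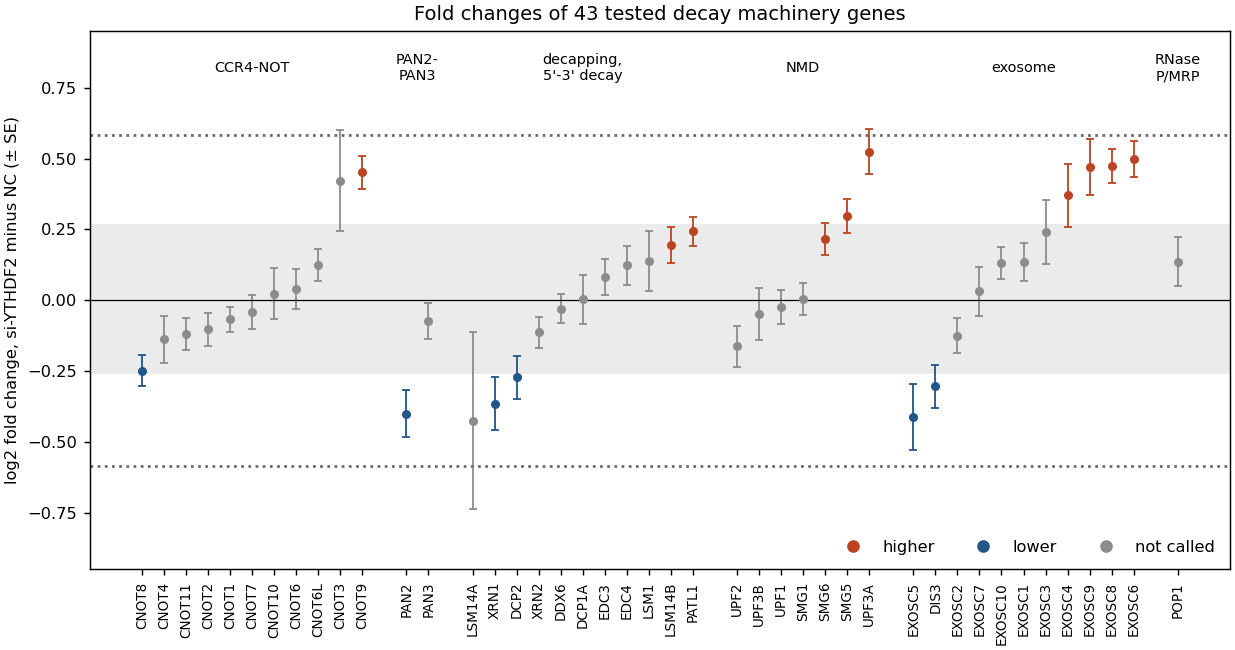
Log2 fold change of each tested gene, si-YTHDF2 minus NC, with its standard error (y axis), ordered by size within each complex (x axis). Red points were called higher, blue points lower and grey points neither. The grey band holds the middle 50% of all tested genes, and dotted lines mark 1.5-fold in each direction.

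In CCR4-NOT, the main cytoplasmic deadenylase, CNOT9 rose and CNOT8 fell. Of its 11 subunits 1 was higher, 1 lower and 9 were not called (18.2% called, beside 51.2% of all tested genes), with a median log2 fold change of -0.04. CNOT1, the scaffold that YTHDF2 binds, was the most abundant of the 44 per length of transcript, at 68.3 CPM per kilobase in NC and 65.2 in si-YTHDF2. Its libraries read 586, 561 and 588 CPM in NC and 558, 553 and 545 CPM in si-YTHDF2. The lowest NC value lay just above the highest si-YTHDF2 value, and the difference was not called (log2 fold change -0.07 ± 0.05, adjusted p = 0.231, edgeR).

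CNOT9, the subunit that holds tryptophan motifs of silencing proteins such as the TNRC6 family, was measured at 72.5, 70.2 and 71.5 CPM in NC and 91.2, 98.5 and 103 CPM in si-YTHDF2. Each si-YTHDF2 library was above each NC library by at least 1.26-fold. The log2 fold change was 0.45 ± 0.06 (adjusted p = 3.00e-05, edgeR), and CNOT9 shares no exonic base with another annotated gene. CNOT8, a catalytic subunit of the DEDD nuclease family, went the other way, from 70.1, 70.7 and 70.9 CPM to 60.2, 60.0 and 58.0 CPM. The groups were tight and separate, and the log2 fold change was -0.25 ± 0.05 (adjusted p = 0.0017, edgeR). Its paralogue CNOT7 stood at 132, 134 and 138 CPM in NC and 139, 133 and 120 CPM in si-YTHDF2, with overlapping groups and a log2 fold change between -0.16 and 0.08 at 95%. The number of CNOT7 counts per CNOT8 count was 1.88, 1.90 and 1.95 in NC against 2.31, 2.22 and 2.07 in si-YTHDF2, a separation at the smallest p that 3 against 3 libraries allow (exact two-sided permutation test, p = 0.1, 0.25 adjusted over 5 pairs).

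The other pair of catalytic subunits, CNOT6 and CNOT6L of the EEP nuclease family, was not called. CNOT6 read 78.3, 72.3 and 82.6 CPM in NC and 87.3, 74.1 and 78.6 CPM in si-YTHDF2, with the groups mixed. CNOT6L read 58.7, 56.3 and 59.3 CPM in NC and 64.6, 64.1 and 61.1 CPM in si-YTHDF2, so that the groups were separate by a small step (log2 fold change 0.12 ± 0.06, adjusted p = 0.0859, edgeR). Their ratio differed by -0.08 on the log2 scale (exact two-sided permutation test, p = 0.5). CNOT2 and CNOT3, which form the NOT module, CNOT4, a RING ubiquitin ligase, and CNOT10 with CNOT11, which form a module on the scaffold, were not called either. Among them CNOT3 had the widest estimate, at 0.42 ± 0.18 (adjusted p = 0.0642, edgeR). It also had the fewest counts per length of the 11 subunits (0.986 CPM per kilobase in NC), at 3.40 to 4.53 CPM in NC and 5.11 to 5.84 CPM in si-YTHDF2, with no overlap, and whether this lies in the counting or in the cells cannot be told from the table.

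In PAN2-PAN3, which trims long poly(A) tails, the catalytic subunit fell and the adaptor was not called. PAN2 was at 30.9, 28.9 and 32.9 CPM in NC and 23.9, 24.5 and 21.9 CPM in si-YTHDF2. All 3 si-YTHDF2 libraries were lower, and the log2 fold change was -0.40 ± 0.08 (adjusted p = 0.00119, edgeR). PAN3, which links PAN2 to poly(A)-binding protein, had a log2 fold change of -0.07 ± 0.06 (adjusted p = 0.35, edgeR). Of the exonic bases of PAN2, 1.56% lie in CNPY2 as well.

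**Figure D3:**
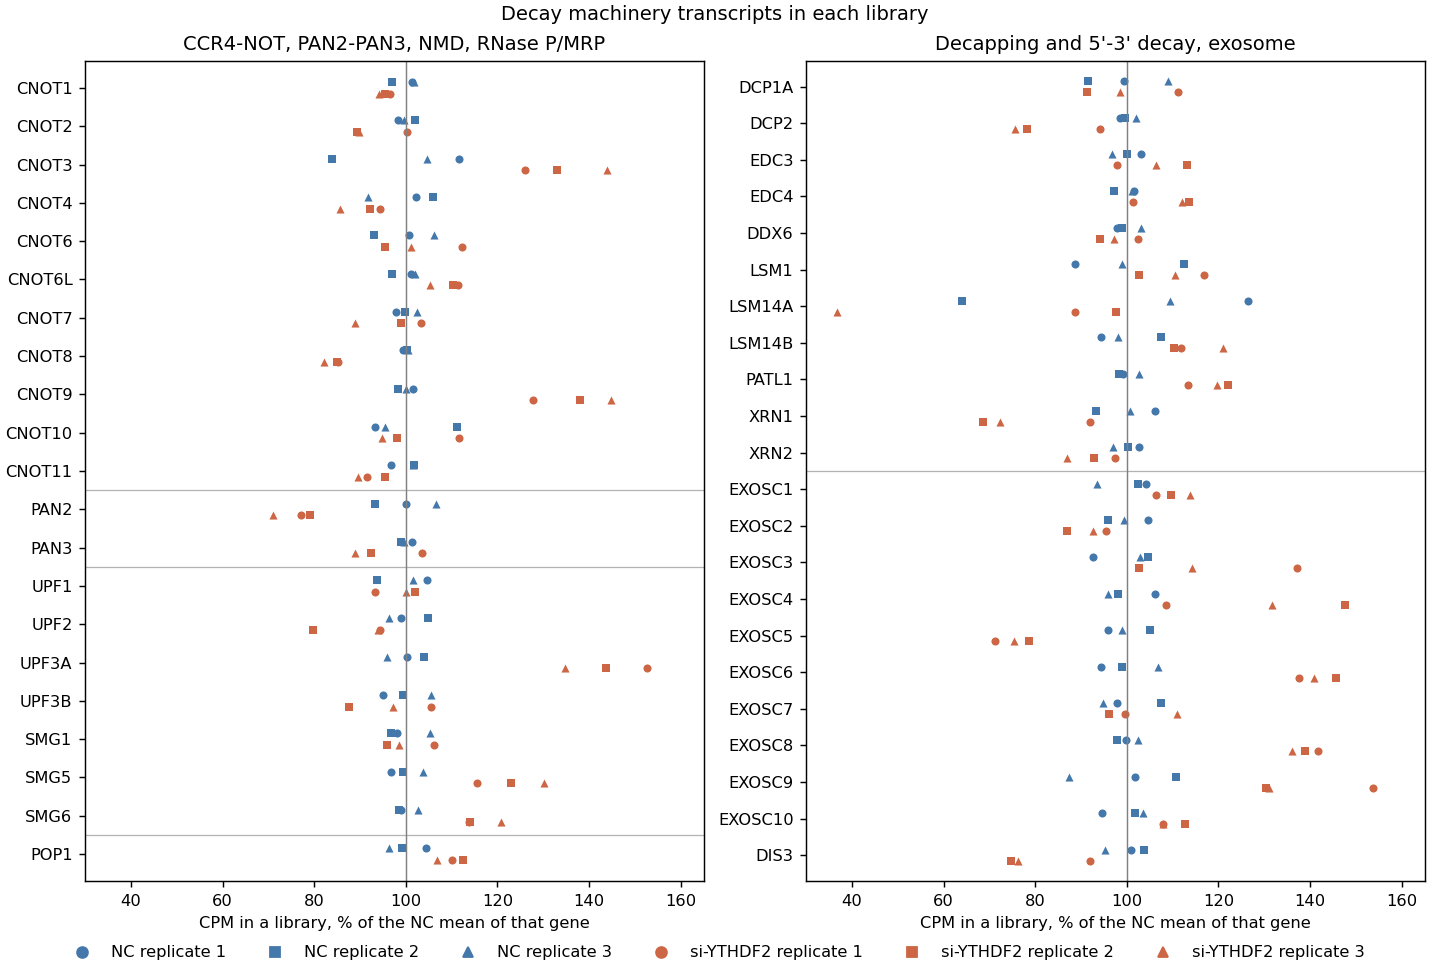
CPM of each tested gene in each library as a percentage of that gene's NC mean (x axis), with genes in rows grouped by complex, NC in blue, si-YTHDF2 in red, and the replicate number as the marker shape. Most red and blue points lie within a narrow band around 100%, and CNOT9, UPF3A, EXOSC6 and EXOSC8 show the widest gaps between groups.

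In the 5'-3' pathway the catalytic enzymes DCP2 and XRN1 fell, while the scaffold PATL1 and the translational repressor LSM14B rose. Of the 11 genes tested here 2 were higher, 2 lower and 7 were not called (36.4% called, beside the same 51.2%), with a median log2 fold change of 0.00. DCP2, which removes the cap, was at 84.0, 84.7 and 86.8 CPM in NC and 80.3, 66.7 and 64.4 CPM in si-YTHDF2. Library 1 of si-YTHDF2 lay close to NC and the other two well below it. The log2 fold change was -0.27 ± 0.08 (adjusted p = 0.00815, edgeR), and scaling by library totals took it to -0.21 with an adjusted p of 0.0513.

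XRN1, the cytoplasmic 5'-3' exonuclease, was at 97.5, 85.5 and 92.4 CPM in NC and 84.4, 63.0 and 66.3 CPM in si-YTHDF2. As for DCP2, library 1 of si-YTHDF2 was the nearest to NC, and the log2 fold change was -0.37 ± 0.09 (adjusted p = 0.00493, edgeR). XRN2, the nuclear enzyme of the same family, was at 171, 168 and 162 CPM in NC and 163, 155 and 145 CPM in si-YTHDF2. These groups touched, and the change of -0.11 ± 0.06 was not called (adjusted p = 0.105, edgeR). XRN1 counts per XRN2 count were 0.569, 0.511 and 0.571 in NC against 0.518, 0.407 and 0.457 in si-YTHDF2, a difference not resolved by these libraries (exact two-sided permutation test, p = 0.2).

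PATL1, which bridges the LSM ring and the decapping enzyme, rose from 178, 176 and 184 CPM to 203, 219 and 215 CPM. The groups were separate, and the log2 fold change was 0.24 ± 0.05 (adjusted p = 0.0013, edgeR). LSM14B was at 80.8, 91.9 and 83.9 CPM in NC and 95.7, 94.4 and 103.5 CPM in si-YTHDF2, a change of 0.19 ± 0.06 (adjusted p = 0.0198, edgeR). The gap between its groups was 1.03-fold, and the call was lost without NC library 1 (adjusted p = 0.1), NC library 3 (0.0734) or si-YTHDF2 library 3 (0.0891), and with the length and GC trend removed (0.105). Its paralogue LSM14A, a translational repressor of P-bodies, had far fewer counts per length (1.63 CPM per kilobase in NC, beside 33.6 for LSM14B), at 7.41, 3.76 and 6.42 CPM in NC and 5.20, 5.72 and 2.15 CPM in si-YTHDF2. Whether the low level lies in the counting or in the cells cannot be told from the table. The counts of LSM14A scattered within both groups, and the change of -0.43 ± 0.31 was not called (adjusted p = 0.277, edgeR).

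The decapping activator DCP1A was not called, at 40.6, 37.4 and 44.5 CPM in NC and 45.4, 37.3 and 40.2 CPM in si-YTHDF2. Its log2 fold change of 0.00 had a 95% interval from -0.17 to 0.17. Its paralogue DCP1B had 0 counts in each NC library and 2, 1 and 1 counts in si-YTHDF2. At this depth a count of 0 allows up to 0.136 to 0.152 CPM in NC (3 counts per library, counting error only), so no difference was detectable, and the gene was not tested. The helicase DDX6, second to CNOT1 per length at 49.5 CPM per kilobase in NC, had a log2 fold change of -0.03 ± 0.05 and was not called. The decapping enhancers EDC3 and EDC4 and the ring subunit LSM1 had values of 0.08, 0.12 and 0.14 and were not called.

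In the NMD pathway, which removes transcripts with premature stop codons, UPF3A, SMG5 and SMG6 rose and no gene fell among the 7 tested (42.9% called, beside the same 51.2%). UPF3A was at 24.2, 25.04 and 23.1 CPM in NC against 36.8, 34.7 and 32.5 CPM in si-YTHDF2. Each si-YTHDF2 library exceeded each NC library by at least 1.30-fold, and the log2 fold change of 0.52 ± 0.08 was the largest of the 44 genes (adjusted p = 9.94e-05, edgeR). Its paralogue on the X chromosome, UPF3B, was at 20.4, 21.3 and 22.6 CPM in NC and 22.6, 18.7 and 20.8 CPM in si-YTHDF2, with overlapping groups and no call (-0.05 ± 0.09, adjusted p = 0.69, edgeR).

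Within each library there were 1.19, 1.18 and 1.02 UPF3A counts per UPF3B count in NC against 1.63, 1.85 and 1.56 in si-YTHDF2. The 2 sets of ratios did not overlap and differed by 0.57 on the log2 scale, but this design cannot pass a threshold of 0.05 (exact two-sided permutation test, p = 0.1, the smallest possible; 0.25 adjusted over 5 pairs). The annotation lists 3 named pseudogenes of UPF3A, and how the authors treated reads shared with them is not stated in the labels.

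SMG5, an adaptor that draws decay enzymes to phosphorylated UPF1, was at 80.3, 82.6 and 86.2 CPM in NC and 95.9, 102 and 108 CPM in si-YTHDF2. SMG6, the endonuclease of the pathway, was at 63.4, 63.1 and 65.7 CPM in NC and 72.9, 73.0 and 77.4 CPM in si-YTHDF2. Both had separate groups, with log2 fold changes of 0.30 ± 0.06 for SMG5 (adjusted p = 0.001, edgeR) and 0.22 ± 0.06 for SMG6 (adjusted p = 0.00541, edgeR). SMG6 shares 25.4% of its exonic bases with genes on the opposite strand, of which SRR was not called (0.10, adjusted p = 0.394) and HIC1 was lower (-1.32, adjusted p = 0.00829). Without knowledge of strand use in counting, reads from the shared bases cannot be assigned.

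The central helicase UPF1 was not called, at -0.02 with a 95% interval from -0.14 to 0.09. SMG1, the kinase that phosphorylates UPF1, was at 0.00 (interval -0.11 to 0.11), with 7 named pseudogenes that may share its reads. UPF2, which bridges UPF1 and the UPF3 proteins, was at -0.16 ± 0.07 (adjusted p = 0.076, edgeR).

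**Figure D4:**
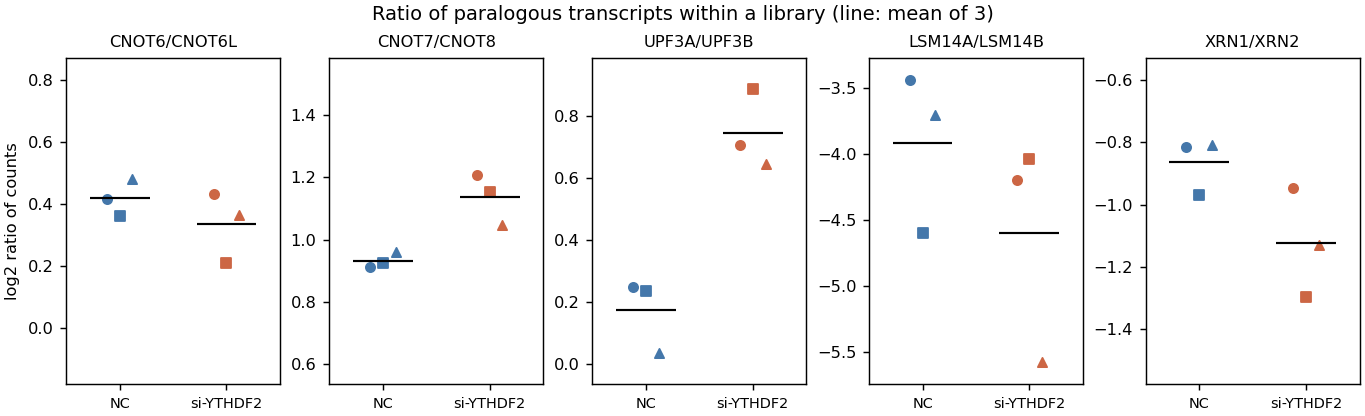
Log2 ratio of the counts of 2 paralogues within each library (y axis, each panel with its own range), for NC (blue) and si-YTHDF2 (red), with the mean of 3 libraries as a line. The groups separate for CNOT7/CNOT8 and UPF3A/UPF3B and overlap for the other 3 pairs.

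The exosome degrades RNA from the 3' end. Its core is a barrel of EXOSC4 to EXOSC9 capped by EXOSC1, EXOSC2 and EXOSC3, and the nucleases DIS3 and EXOSC10 are attached to it. Here 4 ring subunits rose while the ring subunit EXOSC5 and the nuclease DIS3 fell. Of 11 genes 4 were higher, 2 lower and 5 not called, with a median log2 fold change of 0.14, and 0.24 for EXOSC1 to EXOSC9 alone. The called share, 54.5%, was near the 51.2% of all tested genes.

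The 300-base windows around the starts of the 3 ring genes with the largest rises and of EXOSC5, the ring gene that fell, are shown because these subunits of 1 complex moved in opposite directions. Sequences are from RefSeq (GRCh38.p14), 5' to 3' on the gene's strand. EXOSC6 is at chr16:70251891-70252190 (minus), EXOSC8 at chr13:37000536-37000835 (plus), EXOSC9 at chr4:121801073-121801372 (plus) and EXOSC5 at chr19:41397310-41397609 (minus). Capitals mark matches on either strand to the 5 motifs searched, given by their letters as the ETS core CCGGAAG, the NRF1 half-site TGCGCA, the CCAAT box CCAAT, the E-box CACGTG and the GC box GGGCGG.
EXOSC6: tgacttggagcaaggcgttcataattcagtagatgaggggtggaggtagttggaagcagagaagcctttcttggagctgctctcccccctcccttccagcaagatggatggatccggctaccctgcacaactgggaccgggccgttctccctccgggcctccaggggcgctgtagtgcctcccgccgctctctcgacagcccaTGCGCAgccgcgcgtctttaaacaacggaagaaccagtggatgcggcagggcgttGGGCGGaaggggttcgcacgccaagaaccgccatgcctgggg
EXOSC8: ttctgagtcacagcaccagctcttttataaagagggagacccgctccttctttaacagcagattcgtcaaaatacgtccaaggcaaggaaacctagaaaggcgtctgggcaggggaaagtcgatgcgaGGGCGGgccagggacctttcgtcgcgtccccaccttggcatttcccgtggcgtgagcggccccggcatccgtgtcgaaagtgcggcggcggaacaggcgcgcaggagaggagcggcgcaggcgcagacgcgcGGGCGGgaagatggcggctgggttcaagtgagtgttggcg
EXOSC9: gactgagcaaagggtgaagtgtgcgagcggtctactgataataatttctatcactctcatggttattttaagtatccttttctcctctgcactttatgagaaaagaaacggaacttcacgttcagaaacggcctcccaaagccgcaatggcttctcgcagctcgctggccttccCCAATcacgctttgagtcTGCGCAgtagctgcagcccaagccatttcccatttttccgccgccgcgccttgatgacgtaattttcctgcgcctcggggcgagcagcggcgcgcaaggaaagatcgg
EXOSC5: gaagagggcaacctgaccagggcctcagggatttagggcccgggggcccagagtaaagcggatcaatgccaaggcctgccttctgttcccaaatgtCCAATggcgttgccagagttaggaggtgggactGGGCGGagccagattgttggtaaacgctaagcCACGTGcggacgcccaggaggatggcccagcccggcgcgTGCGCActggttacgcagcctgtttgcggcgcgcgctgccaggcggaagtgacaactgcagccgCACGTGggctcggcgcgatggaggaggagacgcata

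The windows differed in their motifs. EXOSC6 held 1 GC box and 1 NRF1 half-site, EXOSC8 held 2 GC boxes, and EXOSC9 held 1 CCAAT box and 1 NRF1 half-site but no GC box. EXOSC5 held 1 CCAAT box, 1 GC box, 1 NRF1 half-site and 2 E-boxes. Windows were found for 37 of the 44 genes, and 30 of these (81.1%) held a GC box, beside 45.0% of all 35116 windows and 56.3% of the 22199 of protein-coding genes. A CCAAT box was in 17 (45.9%, beside 34.7% of coding windows), an ETS core in 6 (16.2%, beside 12.8%), an E-box in 4 (10.8%, beside 8.34%) and an NRF1 half-site in 9 (24.3%, beside 9.88%). The GC box was in 7 of the 9 windows of higher genes and 4 of the 6 of lower genes, the CCAAT box in 3 of 9 and 4 of 6, and the NRF1 half-site in 4 of 9 and 1 of 6. The coding windows were not limited to genes tested here. Each member gave 1 window, whereas the background counted every listed window, without a limit to 1 per gene. The NRF1 half-site was searched only after the longer site had been found in no window of the members. A match describes these letters only, and binding was not measured.

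EXOSC8 rose from 43.2, 42.3 and 44.4 CPM to 61.3, 60.2 and 58.9 CPM. The groups were at least 1.33-fold apart, the widest gap of the tested genes, and the log2 fold change was 0.47 ± 0.06 (adjusted p = 1.81e-05, edgeR). EXOSC6 rose from 46.7, 48.9 and 52.7 CPM to 68.0, 72.0 and 69.6 CPM, at 0.50 ± 0.06 (adjusted p = 1.89e-05, edgeR), again with a clear gap. EXOSC9 rose from 27.4, 29.8 and 23.5 CPM to 41.3, 35.0 and 35.2 CPM. Its libraries scattered more, and the log2 fold change was 0.47 ± 0.10 (adjusted p = 0.00131, edgeR).

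EXOSC4 was at 17.7, 16.3 and 16.0 CPM in NC and 18.1, 24.5 and 21.9 CPM in si-YTHDF2. Library 1 of si-YTHDF2 was only just above NC. The change of 0.37 ± 0.11 was called (adjusted p = 0.0129, edgeR), but not without si-YTHDF2 library 2 (adjusted p = 0.0764). EXOSC5 was lower in each si-YTHDF2 library, at 8.16, 8.998 and 8.64 CPM against 10.98, 12.04 and 11.3 CPM in NC, a change of -0.41 ± 0.12 (adjusted p = 0.0088, edgeR). EXOSC7, the remaining ring subunit, was mixed between groups, at 0.03 ± 0.09.

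Among the nucleases, DIS3, the processive enzyme of the complex, was at 82.3, 84.6 and 77.7 CPM in NC and 74.9, 60.9 and 62.2 CPM in si-YTHDF2. Library 1 of si-YTHDF2 was the nearest to NC, as for DCP2 and XRN1, and the log2 fold change was -0.30 ± 0.08 (adjusted p = 0.00456, edgeR). That library was the highest of its group for 4 of the 6 lower members, but also for 24 of all 43 tested members. Its high position was therefore not limited to genes that fell, and the reason for it was not tested. EXOSC10, the nuclear nuclease, was at 0.13 ± 0.06 (adjusted p = 0.0718, edgeR), with groups that did not overlap. The cap subunits EXOSC1, EXOSC2 and EXOSC3 were at 0.14, -0.12 and 0.24 and were not called.

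Exonic bases shared with an overlapping gene were few for EXOSC9 (5.39%, with CCNA2) and EXOSC8 (8.32%, with SUPT20H), and absent for EXOSC6. CCNA2 was itself higher (0.68, adjusted p = 3.58e-06, edgeR) and SUPT20H was not called (0.06, adjusted p = 0.342). EXOSC4 shared 24.4% with genes not in the table, and DIS3 shared 11.2% with BORA, which was not called (0.12, adjusted p = 0.215), and PIBF1, which was lower (-0.31, adjusted p = 0.0229). The PIBF1 call was lost without NC library 2 (adjusted p = 0.111), si-YTHDF2 library 2 (0.108) or si-YTHDF2 library 3 (0.0565), and with library totals (0.0741). Of the 16 called decay genes, 7 shared no exonic base with another gene.

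**Figure D5:**
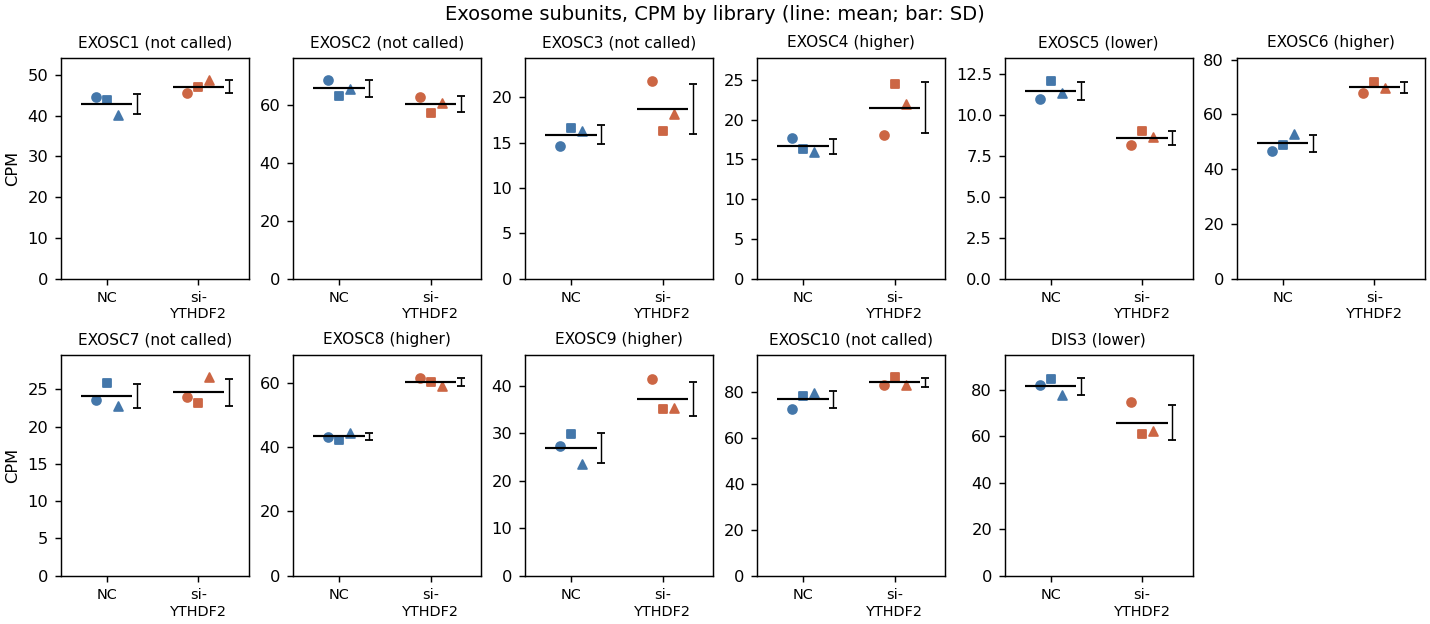
CPM of the 11 exosome genes in each library (y axis from 0, each panel with its own range), for NC (blue) and si-YTHDF2 (red), with the mean as a line and the SD as a bar (n = 3), and the call in the panel title. EXOSC4, EXOSC6, EXOSC8 and EXOSC9 stand higher and EXOSC5 and DIS3 lower in si-YTHDF2.

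Among the 6 genes that fell, DCP2, XRN1 and DIS3 have representative transcripts of 8947, 10143 and 10604 bases. Those of PAN2, CNOT8 and EXOSC5 have 4576, 2708 and 1118 bases. The representative transcripts of the 6 lower genes had a median length of 6761.5 bases, those of the 10 higher genes 3310 and those of the 27 others 3596. Across the 43 genes the Spearman correlation of the log2 fold change was -0.24 with transcript length and 0.28 with GC content, beside -0.04 and 0.12 across 12241 tested genes with an annotated transcript. These are descriptions across genes of the same 6 libraries, and genes are not independent replicates. With a length and GC trend removed from each library, 13 members were higher and 8 lower, beside 6878 of 12241 tested genes called. The log2 fold changes of XRN1, DCP2 and DIS3 kept their sign and call. Across the 18 alternatives they ran from -0.50 to -0.25, -0.37 to -0.16 and -0.40 to -0.20, in that order.

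POP1, the largest protein subunit of RNase P and RNase MRP, averaged 17.3 CPM in NC and 19.0 CPM in si-YTHDF2 and was not called (0.14 ± 0.09, adjusted p = 0.209, edgeR). RNase P/MRP cleaves m6A-marked RNA bound by YTHDF2, which it reaches through the bridging protein RIDA (also HRSP12). Of 9 further genes of this list 5 were higher, 1 lower and 3 not called (66.7% called, beside 51.2% of all tested genes). The higher genes included POP7 (0.50, adjusted p = 6.09e-06), RPP30 (0.46, 2.88e-05) and POP4 (0.28, 0.0022) by edgeR. RIDA was the lower gene, at 13.6, 14.0 and 14.6 CPM in NC and 9.65, 7.57 and 7.29 CPM in si-YTHDF2. The groups did not overlap and the log2 fold change was -0.78 ± 0.13 (adjusted p = 0.000193, edgeR).

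The remaining partners of the decay enzymes were also mixed. None of the 6 tested LSM ring genes was called (0%, beside 51.2% of all tested genes), with log2 fold changes of 0.02 to 0.20. LSM3, LSM4, LSM6 and LSM8 had values of 0.16, 0.13, 0.20 and 0.11. Of 13 further NMD and exon junction genes 6 were higher and 2 lower (61.5% called, beside the same 51.2%). The exon junction helicase EIF4A3 was at 0.29 (adjusted p = 0.000366), while NBAS (-0.46, 4.50e-05) and the decapping adaptor PNRC2 (-0.31, 0.00337) were lower, all by edgeR.

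Of 15 tested exosome cofactors 5 were higher and 5 lower (66.7% called, beside 51.2% of all tested genes). The nuclear helicase MTREX (-0.31, adjusted p = 0.00116) and its partners ZCCHC7 (-0.53, 0.000967) and RBM7 (-0.69, 1.24e-05) were lower, whereas MPHOSPH6 was higher (0.49, 0.000177), all by edgeR. ZCCHC8, which forms a complex with RBM7 and MTREX, was higher (0.36, adjusted p = 0.00162), and so was the poly(A) polymerase PAPD7 (0.34, 0.00151), by the same test. RBM7, an RNA-binding subunit of a complex that brings nuclear RNA to the exosome, went from 43.1, 45.5 and 45.2 CPM to 30.9, 26.5 and 25.2 CPM. Among 12 cap and tail genes 2 were higher and 4 lower (50% called). The cytoplasmic poly(A)-binding protein PABPC1 was at 2001, 2049 and 2047 CPM in NC and 1351, 1415 and 1377 CPM in si-YTHDF2, a separation of -0.56 ± 0.04 (adjusted p = 1.47e-07, edgeR). The uridylating enzyme ZCCHC6 (-0.41, adjusted p = 0.000253) and the decapping enzyme NUDT3 (-0.22, 0.00497) were lower and the scavenger decapping enzyme DCPS higher (0.32, 0.0067), all by edgeR.

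Transcripts known as NMD substrates in human cells went in both directions. Of 14 tested, 6 were higher, 3 lower and 5 not called (64.3% called, beside 51.2% of all tested genes), and several of the 14 encode NMD factors. UPP1 (0.38, adjusted p = 0.000326), MAP3K14 (0.38, 0.00523) and GADD45A (0.23, 0.0395) were among the higher ones, as were SMG5 and SMG6. GADD45B fell from 31.3, 34.4 and 29.6 CPM to 16.6, 19.9 and 19.0 CPM (-0.78, adjusted p = 1.18e-05), and NAT9 (-0.35, 0.00763) and ATF4 (-0.16, 0.0202) were lower, all by edgeR. The GADD45A call was lost without NC library 1 (adjusted p = 0.19), NC library 3 (0.0568), si-YTHDF2 library 1 (0.0829) or si-YTHDF2 library 3 (0.0711), and with DESeq2 (0.0731). The ATF4 call was lost without NC library 1 (0.0573) or NC library 2 (0.11), and with library totals (0.132).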

How the data were processed

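RNA was measured in 6 libraries, 3 NC and 3 si-YTHDF2, from total RNA depleted of ribosomal RNA. The authors deposited a raw count per gene and library, per the file headers, and these counts were used as deposited. Each count column's name ends in Input, for which the labels give no meaning. The submitters' processing notes name hg38, while the aligner, the read counter and whether strand was used is not given in the sources used here, so overlaps between genes were listed. The table lists 16551 genes, and 2 of its lines, which lack an identifier, were left out.

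Counts were tested with edgeR 4.0.16 in R 4.3.3 (quasi-likelihood test, TMM factors, default low-count filter, no covariate, two-sided) over 12264 genes, with Benjamini-Hochberg adjustment and a threshold of 0.05. The edgeR procedure was run on simulated counts in which few genes changed. Many genes changed in these libraries, so that run does not check the scaling here. The SE is the absolute log2 fold change over the square root of F, and CPM uses TMM factors. Intervals at 95% are approximate, as the log2 fold change ± 1.96 SE, and are somewhat narrower than the test itself would give. Ratios of paralogues within a library, with 0.5 added to each count, were compared by exact permutation. DCP1A over DCP1B was not computed because DCP1B had at most 2 counts. Transcript lengths, GC content and overlaps came from GENCODE 29. The NRF1 half-site was searched after the longer palindromic site had been found in no window of the members.

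The named genes are all 44 members, YTHDF2, the 4 genes of each list of other decay genes with the smallest p, and the NMD substrates that were called; values in every library are printed for members called or clearly apart between groups and for paralogue pairs. The genes that overlap members, ZCCHC8, PAPD7 and AGO3 were named, and library values of CNOT1, RBM7, RIDA, PABPC1, GADD45B and GIGYF1 were printed, by choices made after their values were seen. The members and lists were chosen with earlier results of these data known. Protein sequences are not shown, LSM2 and RPP21 were not analysed here, and 1 gene covered by the naming rule is not reported here. The 18 alternatives covered DESeq2 1.42.0, limma-voom (limma 3.58.1), factors by RLE or upper quartile or none, 2 other low-count filters, 2 other thresholds, a replicate block, removal of a length and GC trend with and without that block, and leaving out each of the 6 libraries.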

Additional observations from a re-analysis of the deposited data

How the results depend on the processing

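The 16 called members kept their direction under all 18 alternatives, of which the 2 other thresholds use the same estimates and cannot change it. LSM14B and EXOSC4 were not called at an adjusted p under 0.01. At 1.5-fold the counts were 0 members higher, 0 lower, 2066 of all genes, 0 other decay genes higher, 2 lower and 1 NMD substrate, because the fold limit removes smaller changes. Library totals gave 16 members higher, beside 3860 of all genes higher. Removing the length and GC trend with the replicate block gave 10 lower, beside 6833 of all genes called. Leaving out 1 library gave 9 to 13 higher and 6 to 11 lower, beside 5496 to 6757 of all genes called. The 11 came without si-YTHDF2 replicate 1, where CNOT2, PAN3, XRN2, UPF2 and EXOSC2 were also called lower. The cause was not tested. Median log2 fold changes moved for decapping to 0.07 with library totals, 0.059 with the length and GC trend removed, 0.0614 with the block as well and -0.058 to 0.0572 without 1 library, for NMD to 0.0692, 0.0892 and 0.09 under the first 3 of these, and for the exosome to 0.2009 with library totals. Small uncalled values changed sign. CNOT7 went to 0.0246, 0.0824 and 0.0812 and DDX6 to 0.0361, 0.0644 and 0.0641 under library totals and the length and GC trend without and with the block, AGO3 to 0.0239 and 0.0226 under that trend without and with the block, UPF1 to 0.0409 and UPF3B to 0.0182 under library totals, and with RLE and DESeq2 DCP1A to -0.0032 and -0.0053 and SMG1 to -0.0036 and -0.0057. Without 1 library the ranges were CNOT6 -0.0221 to 0.0941, CNOT7 -0.0828 to 0.0142, CNOT10 -0.0454 to 0.1036, DCP1A -0.0719 to 0.0689, UPF1 -0.0701 to 0.0184, UPF3B -0.1104 to 0.0198, SMG1 -0.0349 to 0.041 and EXOSC7 -0.033 to 0.0843. Deviations of same-numbered libraries from their group means had correlations of 0.0349 to 0.0553. Differently numbered libraries were not compared, so these values cannot show whether the numbers pair samples, and no pairing was assumed. With the replicate block alone 10 members were higher and 6 lower, and 6438 of all genes were called. DCP1B had too few counts to be tested.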

Other observations

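The genes of small-RNA silencing include those of the TNRC6 proteins, which bind CNOT9 and PAN3. Of 10 tested, 5 were higher, 0 lower and 5 not called (50% called, beside 51.2% of all tested genes). Log2 fold changes were positive for 8 and negative for 2. GIGYF1, a translational repressor, was at 68.5, 71.6 and 71.6 CPM in NC and 95.6, 96.2 and 105 CPM in si-YTHDF2. The groups did not overlap, and the log2 fold change was 0.49 ± 0.06 (adjusted p = 1.21e-05, edgeR). The Argonaute genes AGO1 (0.32, adjusted p = 0.00144), AGO2 (0.20, 0.00726) and AGO4 (0.28, 0.00787) were higher by the same test. The AGO2 call was lost without NC library 2 (adjusted p = 0.0544), and AGO3 was not called (-0.10, 0.233).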
